A study of Rattus norvegicus and Mus musculus with 12 samples.

Results

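Zinc transporters, the metal-sensing transcription factor MTF1 and the metallothioneins were examined in articular chondrocytes of the rat and the mouse, with and without IL-1β. The genes were the rows of the deposited tables whose gene symbol was Slc39a8, Slc39a14, Slc39a10, Slc30a1, Mtf1, Mt1, Mt2 or Mt2A, where Mt2 is the mouse symbol and Mt2A the rat symbol. The rule found 7 of 19687 genes in the rat table and 7 of 28603 genes in the mouse table. The data were RNA-seq libraries, 12 in all, with 3 in each of 4 groups. The RC group was untreated rat chondrocytes, and the RM group was rat chondrocytes given IL-1β at 20 ng/ml for 24 h. IL-1β is an inflammatory cytokine used to model osteoarthritis in culture. The MC and MM groups were mouse chondrocytes without and with the same stimulation. All cells came from the cartilage of Sprague–Dawley rats or C57BL/6 mice that were 24 h old, and were used at passage 1, so the cultures are of newborn and not of adult or diseased cartilage. The strain labels of the mouse libraries run from C57BL/6 to C57BL/9, whereas the study names C57BL/6 alone. The methods of the study call the 3 samples of a group independent, without saying whether each came from its own animals, so the spread between them may be partly technical.

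Zinc enters the cytosol through ZIP proteins (the Slc39a genes) and leaves it, to the outside or into vesicles, through ZnT proteins (the Slc30a genes). Free zinc in the cell is sensed by MTF1, a zinc finger transcription factor that binds metal response elements in the promoters of its targets. The best known targets are the metallothioneins, small cysteine-rich proteins that bind zinc and copper, and Slc30a1, which exports zinc across the plasma membrane. In cartilage, ZIP8 and MTF1 are known as an axis through which inflammatory cytokines raise matrix-degrading proteases. ZIP14 is known as an importer of zinc and iron that inflammatory cytokines raise in liver.

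The metal response element core was searched for as TGCACNC or TGCGCNC, where N is any base, on both strands of the 250 bases before the annotated start. The promoters were those of RefSeq for the rat build GRCr8, in which 6 of the 7 rat genes had an entry. Cores on opposite strands that overlapped would be counted separately, which happened in none of the promoters printed. Capitals mark the cores in the sequences shown, each of which reads 5′ to 3′ towards the start of the gene. A core on the opposite strand reads GNGTGCA or GNGCGCA here. The metallothioneins are shown because they had the most cores, Slc30a1 as the exporter with cores near its start, and Slc39a8 as an importer without one.
Mt1, chr19:10832976-10833225, minus strand: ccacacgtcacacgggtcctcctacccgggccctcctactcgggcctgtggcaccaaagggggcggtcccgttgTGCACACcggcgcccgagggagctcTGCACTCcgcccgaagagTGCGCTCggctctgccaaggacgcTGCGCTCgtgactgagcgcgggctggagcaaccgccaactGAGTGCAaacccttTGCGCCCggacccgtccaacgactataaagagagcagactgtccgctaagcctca
Mt2A, chr19:10838709-10838958, minus strand: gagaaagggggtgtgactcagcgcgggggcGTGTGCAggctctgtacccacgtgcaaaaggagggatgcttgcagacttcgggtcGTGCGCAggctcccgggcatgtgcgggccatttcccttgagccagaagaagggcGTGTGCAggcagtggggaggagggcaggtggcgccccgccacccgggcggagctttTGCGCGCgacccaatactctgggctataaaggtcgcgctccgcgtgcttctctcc
Slc30a1, chr13:106021769-106022018, plus strand: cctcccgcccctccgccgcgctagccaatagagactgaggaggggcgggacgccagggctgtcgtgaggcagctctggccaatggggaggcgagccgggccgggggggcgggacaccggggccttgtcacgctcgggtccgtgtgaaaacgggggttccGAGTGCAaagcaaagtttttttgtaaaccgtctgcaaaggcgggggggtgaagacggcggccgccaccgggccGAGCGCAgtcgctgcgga
Slc39a8, chr2:226929941-226930190, plus strand: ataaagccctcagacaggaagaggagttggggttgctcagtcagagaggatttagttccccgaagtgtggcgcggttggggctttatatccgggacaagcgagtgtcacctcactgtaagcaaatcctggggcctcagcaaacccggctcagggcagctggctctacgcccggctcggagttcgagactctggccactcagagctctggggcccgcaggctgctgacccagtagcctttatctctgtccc

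The Mt1 promoter held 6 cores, a number that 9 of the 33469 rat promoters of the same length reached (0.0269%). The Mt2A promoter held 4 cores, and 0.266% of all promoters held at least as many. The Slc30a1 promoter held 2 cores, both on the opposite strand, beginning 91 and 18 bases before the start. The Mtf1 promoter held 2 as well, beginning 249 and 51 bases before its start, and 4.9% of all promoters held at least 2. In both Mt1 and Mt2A the core nearest to the start began 55 bases before it. No core lay in the windows of Slc39a8 and Slc39a10, and 20.6% of all promoters held at least 1. The NF-κB motif, searched for in the same windows on both strands, was in none of the 6 promoters and in 3.54% of all promoters. These are matches of letters, and binding was not measured.

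**Figure D1:**
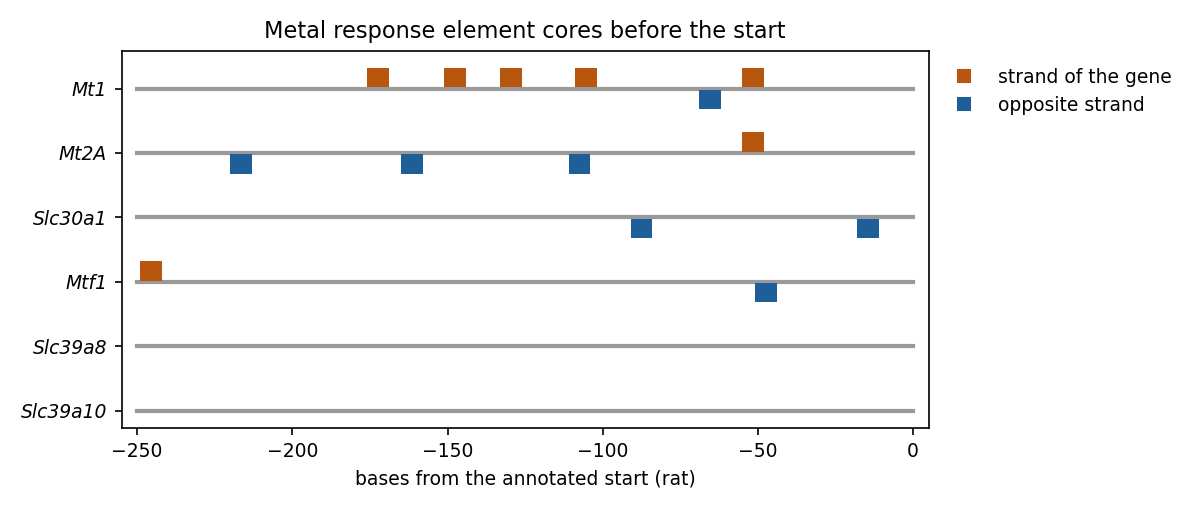
Positions of metal response element cores in the 250 bases before the annotated start of 6 rat genes, with distance from the start in bases on the horizontal axis and 1 line per gene. Boxes above a line are cores on the strand of the gene and boxes below are on the opposite strand. Mt1 has 6 cores, Mt2A 4, Slc30a1 and Mtf1 2 each, and Slc39a8 and Slc39a10 have none.

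Between 16841580 and 25903459 reads were counted on genes in each library. Markers of chondrocytes were present in every group, with Col2a1, the collagen of hyaline cartilage, at a mean FPKM of 2838.4 in RC and 1346.8 in MC. All 9 chondrocyte markers were downregulated by IL-1β in both species. Of all genes tested, 18.3% were upregulated and 16.8% downregulated in rat, and 37.4% and 37.7% in mouse. Of the macrophage and leukocyte markers, 2 of 6 tested were upregulated and 2 downregulated in rat, and 4 of 4 tested were upregulated in mouse. The summed FPKM of that list lay between 20.5 and 25.1 in RC, between 32.3 and 37.2 in RM, between 7.45 and 8.3 in MC and between 34.5 and 37.1 in MM. The 4 called in mouse were Cd14 (log2 fold change 3.96), Cd68 (1.5), Lyz2 (1.01) and Csf1r (0.7). The other 6 had too few reads for a test, among them Ptprc, which marks all leukocytes, with 3 counts over MC and 1 over MM. Itgam had none, but 68.7% of its exon bases are shared with Gm49368. Endothelial markers summed to at most 0.793 FPKM in every library, muscle markers to at most 5.18, and fibroblast and tenocyte markers to between 707.8 and 824.1 in rat and between 47.5 and 78.0 in mouse. Most of that rat sum was 1 gene, Thy1, with a mean FPKM of 726.0 in RC and 660.1 in RM. Pdgfra came next, at 46.3 and 44.2. The part of other cells in the results that follow was not tested. In bulk libraries, fewer cells of a type and less RNA per cell cannot be told apart.

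In rat, 6 of the 7 genes were upregulated by IL-1β, none was downregulated, and Mtf1 did not pass the test. In the same edgeR test with an adjusted P under 0.05, 18.3% of the 13303 rat genes tested were called higher and 16.8% lower. The median log2 fold change of the 7 genes was 1.53, beside 0.01 over all rat genes tested. In mouse, 6 genes had enough reads to be tested and all 6 were upregulated, with a median log2 fold change of 2.44 beside -0.02 over all genes. The background in mouse was larger, as 37.4% of the 14774 genes tested were called higher and 37.7% lower. The genes were chosen with earlier results of these data known, so these counts and medians describe them and do not test the set. The whole zinc family (ZIP, ZnT, metallothioneins and MTF1) had 21 genes tested in each species. Its median log2 fold change was 0.04 in rat and 0.81 in mouse. The criteria of the study were read here as P under 0.05 without adjustment, a change of 0.85 or more in either direction on the log2 scale, and 1 FPKM or more in any library, although its text does not say whether the fold change is on the log2 scale or the P adjusted. Under this reading, 4 genes were called higher in rat and 4 in mouse. These criteria called 4.64% of rat genes higher and 3.9% lower, and 12.6% of mouse genes higher and 13.0% lower. The rat genes were Slc39a8, Slc39a14, Mt1 and Mt2A. The mouse genes were Slc39a8, Slc39a14, Slc39a10 and Mt1, and mouse Mtf1, with a log2 fold change of 0.84, lay just outside.

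**Figure D2:**
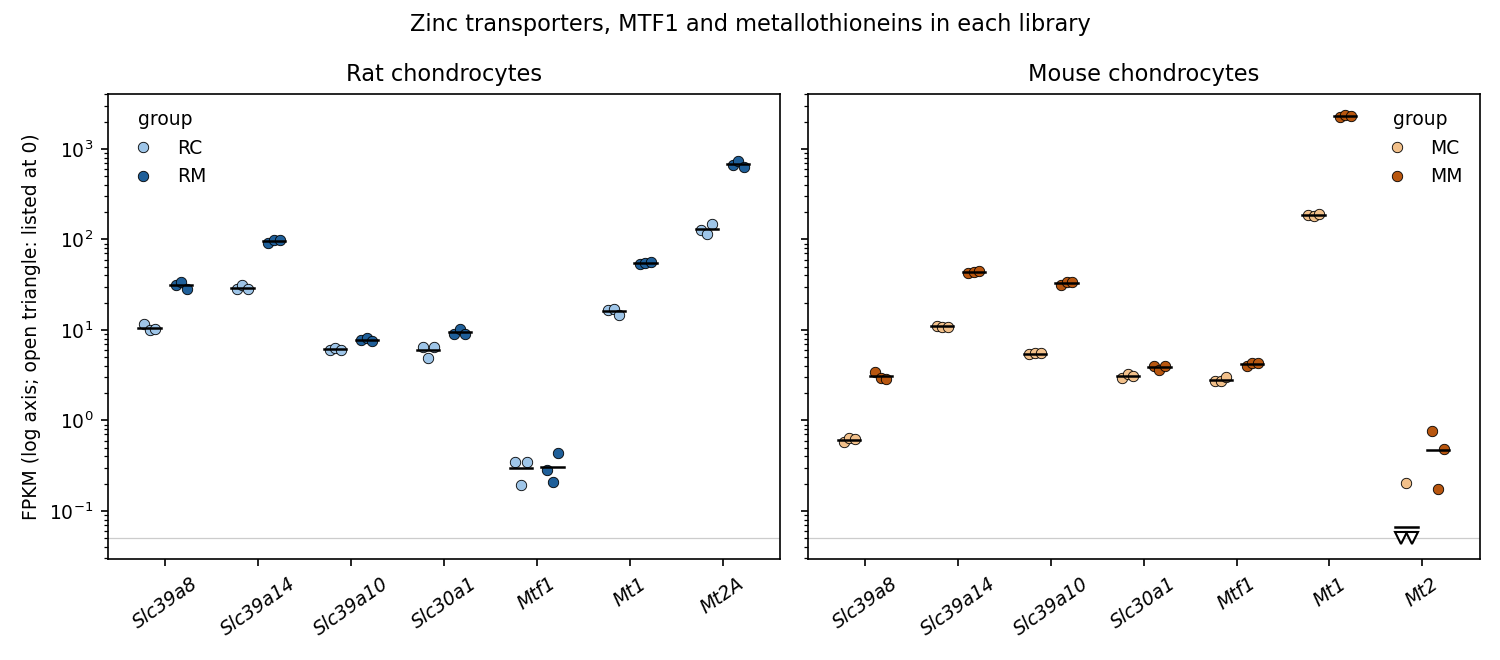
FPKM of each gene in each library, on a log axis, for rat (RC and RM) and mouse (MC and MM). Points are libraries, bars are means of 3, and open triangles are libraries in which Mt2 is listed at 0. The groups do not overlap for any gene except rat Mtf1 and mouse Mt2, and mouse Mt1 reaches a mean of 2333.9 FPKM in MM. The share of all genes whose groups do not overlap was not worked out. By edgeR, 18.3% of rat genes tested were called higher and 16.8% lower, and 37.4% and 37.7% of mouse genes.

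FPKM, the reads on a gene scaled to its length and to the total reads counted, allows levels of genes to be compared within a species. The rat and mouse tables were made separately and on different gene models, so levels set side by side across species show no more than their order. In mouse, the scaling factors of edgeR (TMM) lay between 1.099 and 1.104 in MC and between 0.905 and 0.911 in MM. The fitted mouse log2 fold changes are therefore about 0.28 above the ratio of FPKM values, and with library size alone the median over all mouse genes was -0.3, with 3697 genes called higher and 8077 lower in place of 5521 and 5564. In the difference between the species, the same change gave 2193 genes above and 5416 below 0 in place of 3436 and 3539. Rat factors lay between 0.994 and 1.008.

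Slc39a14 (ZIP14) was the most abundant of the importers among these genes in both species. In rat its FPKM was 28.4, 31.4 and 28.2 in RC and 91.3, 99.7 and 99.8 in RM. All RM libraries lay above all RC libraries, and the log2 fold change was 1.71 (SE 0.073, edgeR adjusted P = 8.42e-08). In mouse it was 11.1, 10.9 and 10.9 in MC and 43.0, 43.8 and 44.8 in MM, with a log2 fold change of 2.28 (SE 0.033, edgeR adjusted P = 7.35e-57). The groups were far apart in both species, and 1.46% of rat genes and 5.37% of mouse genes had a larger log2 fold change. In mouse the gene lies on chr14:70303469-70351425 of GRCm38, and none of its exon bases is shared with another gene.

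Slc39a8 (ZIP8), an importer of zinc, manganese and cadmium, was upregulated from very different levels. In rat its FPKM was 11.6, 10.1 and 10.2 in RC and 31.1, 34.0 and 28.1 in RM (log2 fold change 1.53, SE 0.096, edgeR adjusted P = 1.17e-06). In mouse it was 0.579, 0.643 and 0.618 in MC and 3.44, 2.95 and 2.87 in MM (log2 fold change 2.61, SE 0.11, edgeR adjusted P = 2.29e-31). Those mouse values rest on 76, 83 and 85 counts in MC and 528, 442 and 385 in MM, and the groups did not overlap in either species. In MC, Slc39a8 had rank 10 among the 14 ZIP genes by FPKM, above Slc39a5, with which its libraries overlapped, and in RC it had rank 7. The mouse gene, on chr3:135825279-135888572, shares no exon bases with other genes.

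Slc39a10 (ZIP10), an importer of the plasma membrane, had the change that differed most between the species among the 6 member genes tested in both. In rat its FPKM was 5.96, 6.35 and 5.98 in RC and 7.69, 8.16 and 7.51 in RM, a log2 fold change of 0.34 (SE 0.076, edgeR adjusted P = 0.0061). The RM libraries were all above the RC libraries, although 20.9% of rat genes had a larger log2 fold change. In mouse it was 5.36, 5.54 and 5.57 in MC and 31.7, 34.0 and 33.7 in MM, a log2 fold change of 2.87 (SE 0.044, edgeR adjusted P = 2.84e-55). The mouse gene is at chr1:46807544-46892852 without exon overlap.

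Slc30a1 (ZnT1), the exporter, was upregulated in both species, to about the same degree with TMM scaling. In rat its FPKM was 6.54, 4.92 and 6.50 in RC and 8.99, 10.2 and 9.01 in RM (log2 fold change 0.64, SE 0.12, edgeR adjusted P = 0.00234). In mouse it was 2.91, 3.24 and 3.12 in MC and 3.96, 3.61 and 3.98 in MM (log2 fold change 0.59, SE 0.085, edgeR adjusted P = 6.22e-09). Every stimulated library lay above every control library, by a smaller margin than for Slc39a8 and Slc39a14. With library size alone the mouse value was 0.32 (edgeR adjusted P = 0.000677). The ratio of mean FPKM, stimulated over control, was 1.57 in rat and 1.25 in mouse. The mouse gene lies on chr1:191906767-191913247, and 8.92% of its exon bases are shared with another gene.

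Mtf1, the zinc sensor, gave no call in rat and a rise in mouse. The rat FPKM was 0.349, 0.195 and 0.349 in RC and 0.281, 0.211 and 0.433 in RM, from only 24 to 55 counts per library. The RC and RM libraries overlapped, and the log2 fold change was 0.04 (SE 0.33, edgeR adjusted P = 0.95). It turned negative without RC library 2 (-0.20) and without RM library 3 (-0.29), so no direction can be given at this depth. In mouse the FPKM was 2.71, 2.73 and 3.03 in MC and 3.97, 4.27 and 4.30 in MM, from 409 to 744 counts per library. The log2 fold change was 0.84 (SE 0.066, edgeR adjusted P = 6.16e-18), the groups did not overlap, and with library size alone it was 0.56 (edgeR adjusted P = 1.28e-11). The mouse gene is on chr4:124802104-124849800, with 8.09% of its exon bases shared with another gene.

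Mt2A in rat and Mt1 in mouse reached the highest levels of the genes examined. In rat, Mt2A had an FPKM of 128.5, 115.5 and 147.2 in RC and 659.0, 733.2 and 637.7 in RM. The RM libraries all lay far above the RC libraries, and the log2 fold change was 2.36 (SE 0.1, edgeR adjusted P = 8.42e-08), with 0.744% of rat genes above it. Among all rat genes of a library, Mt2A moved from a rank between 496 and 646 by FPKM in RC to one between 73 and 95 in RM. Mt1, its neighbour on the chromosome, had an FPKM of 16.7, 17.2 and 14.6 in RC and 54.0, 55.6 and 56.3 in RM (log2 fold change 1.76, SE 0.11, edgeR adjusted P = 8.67e-07). Mt2A stood at 8.16 ± 1.72 times the FPKM of Mt1 in RC and at 12.2 ± 0.938 times in RM (SD, n = 3).

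In mouse, Mt1 had an FPKM of 184.2, 183.1 and 190.0 in MC and 2280.6, 2390.4 and 2330.6 in MM. The mean of MM was 12.6 times that of MC, and the log2 fold change was 3.93 (SE 0.028, edgeR adjusted P = 9.11e-74). Mt1 was between the 165th and 175th gene by FPKM in MC and the 8th or 9th in MM, and its share of all counted reads went from 0.0231% to 0.291%. The MM libraries lay close together, between 50769 and 58261 counts each, as did the MC libraries, between 3842 and 4252. The mouse gene, chr8:94179082-94180327, is 1 block of 1246 exon bases in GENCODE M21 once the exons of its transcripts are merged, since some transcripts retain the introns. An FPKM over that length is lower than one over the spliced transcript would be.

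Mouse Mt2, on chr8:94172664-94173568, had too few reads for a test. Its counts were 0, 2 and 0 in MC and 9, 2 and 5 in MM, a ratio of 7.27 with an exact 95% interval of 1.71 to 65.2 that covers counting error only. The groups overlapped at 2 counts. Without the filter on low counts, edgeR called Mt2 higher on these 18 counts (adjusted P = 0.0161). Of its 588 exon bases, 432 (73.5%) are also covered by an exon of Gm45774 on the opposite strand, which itself had 7 counts over MC and 24 over MM. Whether reads were counted by strand, and how reads that match both genes were counted, is not stated, so the level of Mt2 in these cells cannot be given. Among genes whose mean reached 10 FPKM in RC, the median log2 ratio of MC to RC FPKM was -0.87 over the 3521 genes without shared exon bases and -3.73 over the 85 genes with at least 50% of their exon bases shared. The part of gene overlap in the Mt2 counts was not tested.

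**Figure D3:**
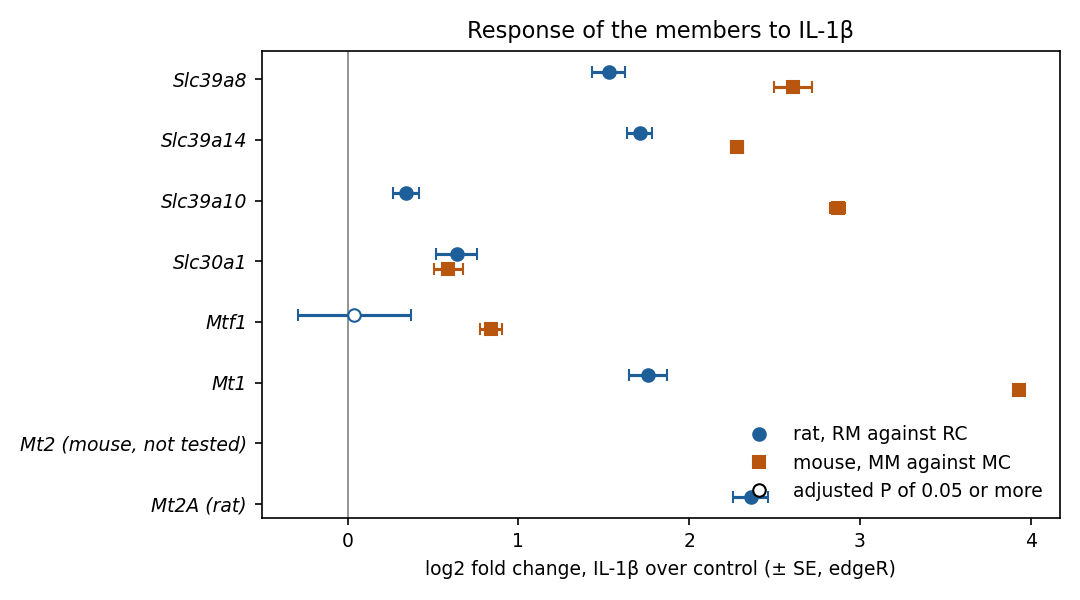
Log2 fold change of IL-1β over control with its SE (edgeR) for rat (circles) and mouse (squares); filled symbols have an adjusted P under 0.05. Every tested gene lies to the right of 0, with rat Mtf1 at 0.04 and not called. The called genes run from 0.34 for rat Slc39a10 to 3.93 for mouse Mt1, and mouse Mt2 was not tested.

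The change in mouse was compared with the change in rat in 1 fit of all 12 libraries, over the 10951 genes shared by symbol. Of the 6 genes tested there, 5 changed more in mouse and none more in rat. Over all shared genes, 31.4% had a difference above 0 (mouse minus rat) that was called and 32.3% one below 0. The difference (mouse minus rat, log2) was 2.53 for Slc39a10 (95% interval 2.37 to 2.70, edgeR adjusted P = 1.39e-13) and 2.17 for Mt1 (2.01 to 2.34, edgeR adjusted P = 1.3e-12). It was 1.08 for Slc39a8 (0.79 to 1.37, edgeR adjusted P = 7.3e-06) and 0.57 for Slc39a14 (0.42 to 0.72, edgeR adjusted P = 5.26e-06). For Slc39a8 this is a comparison of ratios from very different levels, and on log2(FPKM + 1), which damps low values, the difference was -0.12 (limma adjusted P = 0.367). For Slc39a14 it was between 0.21 and 0.61 over the alternatives.

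For Mtf1 the difference was 0.81 (0.26 to 1.36, edgeR adjusted P = 0.0194). It was not called with library size alone (0.52, edgeR adjusted P = 0.116). The call was also lost without RC library 3 (0.69, edgeR adjusted P = 0.0711) or without RM library 2 (0.58, edgeR adjusted P = 0.0765). Limma on log2(FPKM + 0.1) gave no call either (0.52, limma adjusted P = 0.109). Nor did limma voom with weights per species (0.83, limma adjusted P = 0.0546). For Slc30a1 the difference was -0.04 with an interval of -0.34 to 0.25 (edgeR adjusted P = 0.817), which leaves room for a difference in either direction. The value depended on scaling. It was -0.34 with library size alone (edgeR adjusted P = 0.0563) and -0.35 on log2(FPKM + 0.1) (limma adjusted P = 0.0583). On log2(FPKM + 1) it was -0.34 and was called (limma adjusted P = 0.0326). Mt2A and Mt2 could not be compared between the species.

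The order of levels was not the same in the 4 groups. In RC it ran Mt2A, Slc39a14, Mt1, Slc39a8, Slc39a10, Slc30a1 and Mtf1, where the libraries of Slc39a10 and Slc30a1 overlapped. In RM, Slc30a1 stood above Slc39a10 and no neighbours overlapped. In MC it ran Mt1, Slc39a14, Slc39a10, Slc30a1, Mtf1, Slc39a8 and Mt2, and in MM Mtf1 stood above Slc30a1. Slc30a1 and Mtf1 overlapped in both mouse groups. Mtf1 was at the bottom in rat, and Slc39a8 below Mtf1 in mouse.

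The importers of the ZIP family were examined as a list of 14 genes, of which 12 could be tested in each species. In rat, 4 were upregulated, 2 downregulated and 6 did not pass the test, with a median log2 fold change of -0.05. Of all rat genes tested, 18.3% were upregulated and 16.8% downregulated. Slc39a14, Slc39a8 and Slc39a10 were the 3 that rose most, and Slc39a6 (ZIP6, a partner of ZIP10) rose by 0.22 (edgeR adjusted P = 0.0376). The call of Slc39a6 was lost without RC library 3 (0.18, edgeR adjusted P = 0.138), with the replicate block (edgeR adjusted P = 0.065) and without RM library 1, 2 or 3 (edgeR adjusted P = 0.124, 0.0913 and 0.099). Slc39a7, which releases zinc from the endoplasmic reticulum and had the highest ZIP level in RC, was downregulated from 104.1, 115.6 and 115.0 to 89.4, 85.7 and 94.1 FPKM (log2 fold change -0.33, SE 0.07, edgeR adjusted P = 0.0046). Slc39a11 was lower by a log2 fold change of -0.26 (edgeR adjusted P = 0.0322), a call that was lost in 10 of the 13 alternatives run.

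In mouse, 7 ZIP genes were upregulated, 3 downregulated and 2 did not pass the test, with a median log2 fold change of 0.63. Of all mouse genes tested, 37.4% were upregulated and 37.7% downregulated. The 3 ZIP genes with the largest log2 fold change were Slc39a4, Slc39a10 and Slc39a8. Slc39a4 (ZIP4), the importer of dietary zinc in the intestine, had 2, 0 and 0 counts in MC and 83, 52 and 56 in MM. The ratio was 86.8 with an exact 95% interval of 23.7 to 722.3, at a low level of 1.07 FPKM in MM. In rat the same gene had 13 to 19 counts in every library and the groups overlapped. The difference between the species was 6.66 (95% interval 5.34 to 7.99, edgeR adjusted P = 2.09e-07), a value that rests on the few MC counts. The 3 called lower in mouse were Slc39a7 (-0.43, edgeR adjusted P = 0.00853), Slc39a3 (-0.12, edgeR adjusted P = 0.0397) and Slc39a9 (-0.10, edgeR adjusted P = 0.0498). The calls of Slc39a3 and Slc39a9 were lost in 7 and 8 of 13 alternatives. Slc39a7 lost the call without MC library 1 (-0.25, edgeR adjusted P = 0.17) or MM library 3 (-0.33, edgeR adjusted P = 0.0557), and 80.7% of its exon bases in mouse are shared with Gm20427, beside an FPKM of only 3.12 in MC and 111.6 in RC.

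**Figure D4:**
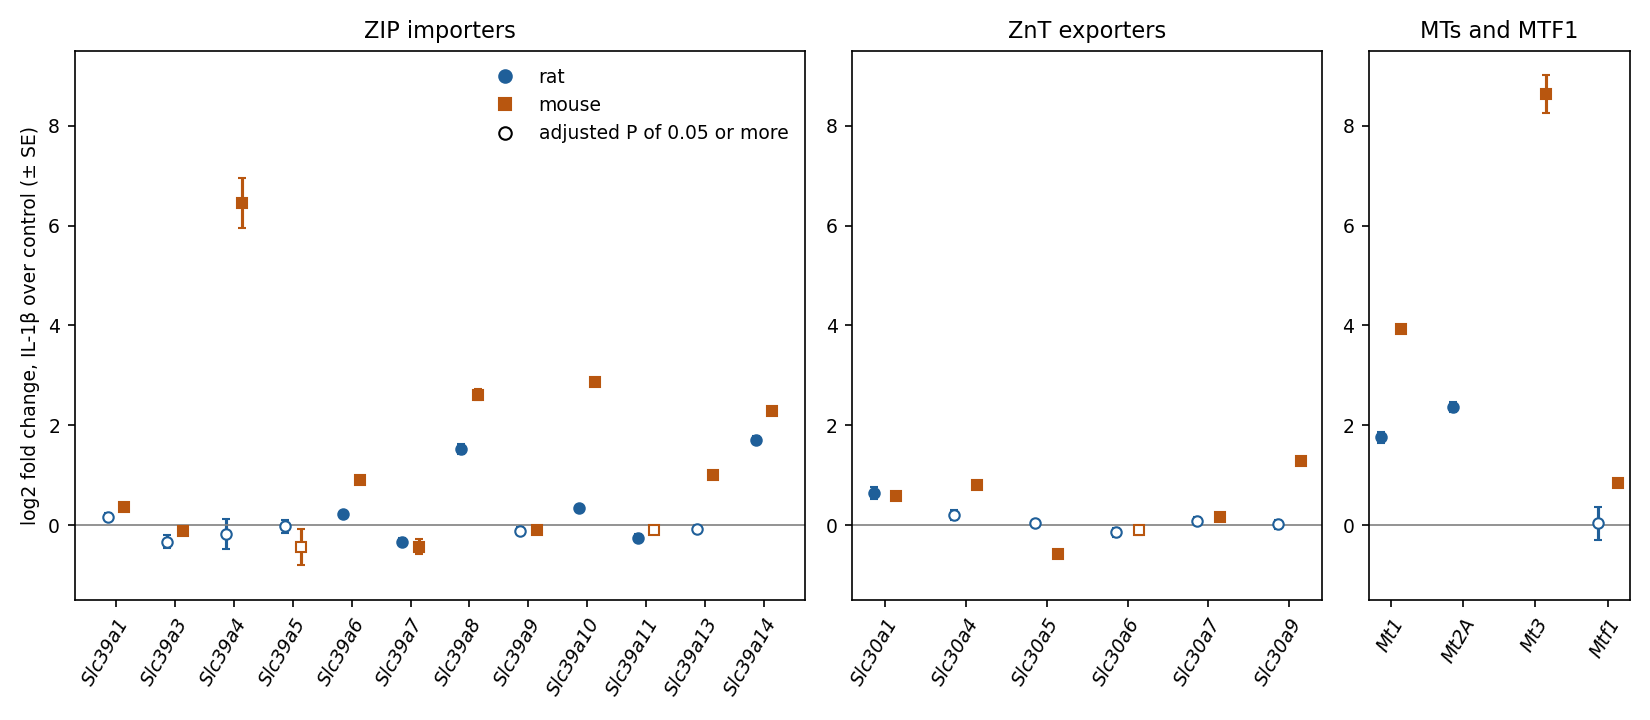
Log2 fold change of IL-1β over control with its SE (edgeR) for every tested gene of the ZIP importers, the ZnT exporters, and the metallothioneins (MTs) with MTF1, in rat (circles) and mouse (squares). Filled symbols have an adjusted P under 0.05. Mouse Slc39a4 and Mt3 lie highest but rest on 2 and 1 control counts, so their fitted values depend on the prior count.

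The sum of ZIP transcripts was 1.2 times as high in RM as in RC and 1.49 times as high in MM as in MC. The summed FPKM of the 14 genes was 371.8 ± 20.1 in RC and 447.4 ± 11.5 in RM, and 177.4 ± 3.04 in MC and 264.8 ± 2.9 in MM (SD, n = 3). Within it, Slc39a14 held 7.89% ± 0.306 in RC and 21.7% ± 0.71 in RM, and 6.19% ± 0.136 in MC and 16.6% ± 0.174 in MM. It became the ZIP gene with the highest mean FPKM in RM, where its libraries overlapped those of Slc39a7. The share of Slc39a8 was 2.88% ± 0.389 in RC, 6.95% ± 0.767 in RM, 0.346% ± 0.0199 in MC and 1.17% ± 0.129 in MM. Slc39a10 held 1.64% ± 0.0533 in RC and 1.74% ± 0.0981 in RM, whereas it went from 3.1% ± 0.0665 to 12.5% ± 0.365 in mouse. Slc39a1 (ZIP1) was the largest ZIP gene in MC and MM, at 43.0% ± 0.527 and 30.6% ± 0.137.

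**Figure D5:**
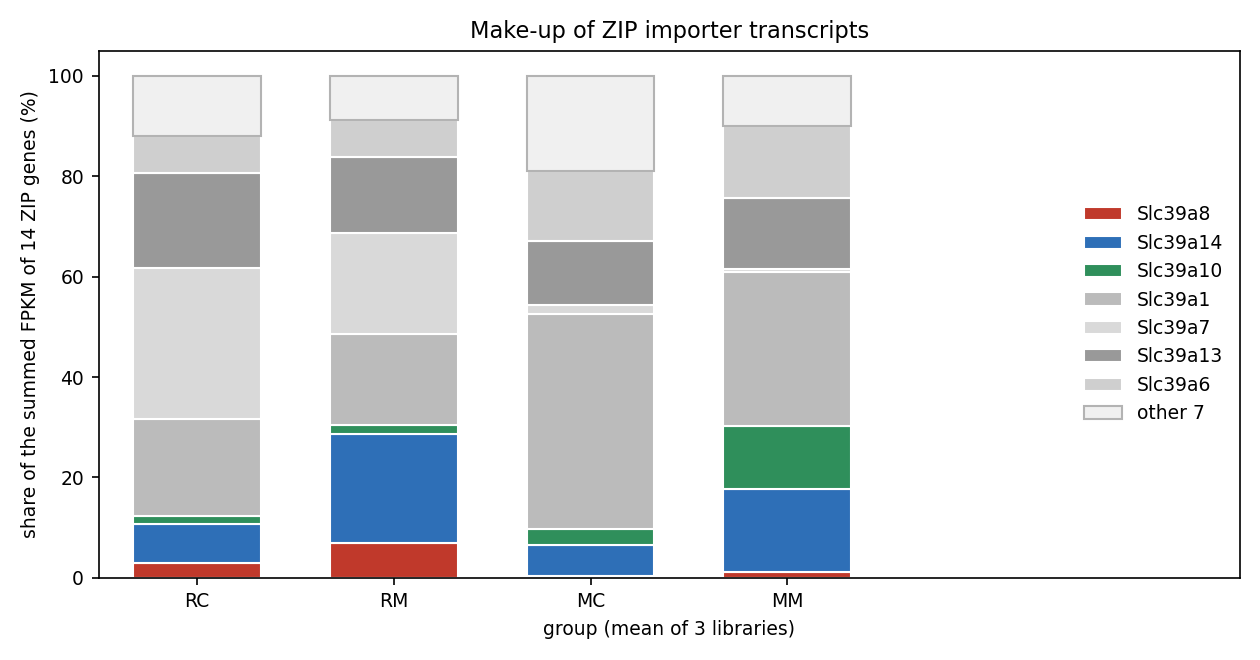
Share of each ZIP gene in the summed FPKM of 14 ZIP genes (%), as the mean of 3 libraries in each group, with the 3 examined importers in colour. Slc39a14 widens from 7.89% in RC to 21.7% in RM and from 6.19% in MC to 16.6% in MM, while Slc39a10 widens only in mouse, from 3.1% to 12.5%.

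Of the exporters, 6 ZnT genes could be tested in each species. Over all genes tested, 18.3% were upregulated and 16.8% downregulated in rat, and 37.4% and 37.7% in mouse. Slc30a1 was the only ZnT gene called in rat, and the other 5 gave log2 fold changes between -0.14 and 0.20. In mouse, 4 ZnT genes were upregulated, 1 downregulated and 1 did not pass the test. Slc30a9, a mitochondrial transporter, had the largest rise, from 6.83, 6.37 and 6.77 to 13.4, 13.5 and 13.1 FPKM (log2 fold change 1.28, SE 0.039, edgeR adjusted P = 1.44e-38). Slc30a4, which loads zinc into vesicles, rose by 0.81 (edgeR adjusted P = 1.56e-25) and Slc30a1 came next. The fourth call, Slc30a7 at 0.16, turned negative with library size alone (-0.12, edgeR adjusted P = 0.0262). Slc30a5, which supplies zinc to enzymes of the secretory pathway, fell from 15.7, 15.5 and 14.9 to 8.59, 8.36 and 8.63 FPKM (log2 fold change -0.57, edgeR adjusted P = 6.55e-19). In the difference between species, Slc30a9 (1.26, edgeR adjusted P = 6.27e-09) and Slc30a4 (0.61, edgeR adjusted P = 0.000432) changed more in mouse, and Slc30a5 was the only ZnT gene with a difference towards rat (-0.61, edgeR adjusted P = 2.29e-06).

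The other metallothioneins were at low levels in control cells. Mt3, known from brain as a growth inhibitory factor, had 1, 0 and 0 counts in MC and 184, 166 and 150 in MM, or 8.21 ± 0.352 FPKM (SD, n = 3). The ratio of counts was 454.7, with an exact 95% interval of 81.2 to 17994.5. In rat, Mt3 had 2 counts over RC and 3 over RM. Mt4, a metallothionein of stratified epithelia, had no count over MC and 7 over MM. With a floor of 3 counts over the group in place of the 0, the ratio was 2.12, without allowance for counting error in MM.

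The proteases that the ZIP8 and MTF1 axis is known to raise were all upregulated in rat, with log2 fold changes of 5.92 for Mmp3, 5.19 for Mmp9, 3.03 for Mmp13, 2.96 for Mmp12 and 1.49 for Adamts5. Of all genes tested, 18.3% were upregulated in rat and 37.4% in mouse. In mouse, Mmp3 (13.3), Mmp13 (4.96) and Mmp9 (3.83) were upregulated. Mmp9 rests there on 3, 6 and 1 counts in MC, and its mean in MM was only 0.665 FPKM. Mouse Mmp12 went from 3 counts to 1408, a ratio of 426.8 (exact 95% interval 145.7 to 2072.1). Adamts5, an aggrecanase, was downregulated in mouse, from 30.1, 29.7 and 28.4 FPKM in MC to 20.4, 19.7 and 19.1 in MM (log2 fold change -0.30, SE 0.033, edgeR adjusted P = 2.96e-12). Adamts5 differed between the species by -1.79 (edgeR adjusted P = 8.43e-11), while Slc39a8 and Slc39a14 rose in both. The difference was above 0 for Mmp3 (7.38, edgeR adjusted P = 2.92e-16), Mmp12 (5.9, edgeR adjusted P = 9.94e-09) and Mmp13 (1.93, edgeR adjusted P = 6.34e-11). For Mmp9 it was not called (-1.34, edgeR adjusted P = 0.108).

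Other metals were examined because ZIP14 and ZIP8 also carry iron, and metallothioneins bind copper. Of 9 iron genes tested in rat, 3 were upregulated and 3 downregulated, where 18.3% and 16.8% of all rat genes were. Slc11a2 (DMT1, an iron importer) had a log2 fold change of 1.05 (edgeR adjusted P = 7.32e-06) and Ftl1, the ferritin light chain, of -0.59 (edgeR adjusted P = 0.000203). Of 12 in mouse, 6 were upregulated and 5 downregulated, beside 37.4% and 37.7% of all mouse genes. Fth1, the ferritin heavy chain, rose from 885.3 ± 27.3 to 8451.2 ± 227.9 FPKM (SD, n = 3; log2 fold change 3.53, edgeR adjusted P = 5.75e-73). Hmox1, which frees iron from haem, was upregulated in mouse by 3.31 (log2, edgeR adjusted P = 2.57e-66) and downregulated in rat (-0.43, edgeR adjusted P = 0.00125), and the difference was 3.74 (edgeR adjusted P = 3.61e-15).

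Of the 9 copper genes tested in each species, none was upregulated and 2 were downregulated in rat, beside 18.3% and 16.8% of all genes. These were the copper importer Slc31a1 (-0.25, edgeR adjusted P = 0.0174) and Ccs, the copper chaperone of superoxide dismutase (-0.36, edgeR adjusted P = 0.0426), whose libraries overlapped between RC and RM. In mouse, 3 were upregulated and 2 downregulated, no larger a share than the 37.4% and 37.7% of all genes. Atp7b, a copper exporter known from liver, went from 0.0898, 0.0639 and 0.0770 FPKM in MC to 10.7, 11.3 and 12.2 in MM (log2 fold change 7.46, SE 0.12, edgeR adjusted P = 4.23e-54). Its relative Atp7a rose by 0.70 (edgeR adjusted P = 3.61e-15). In rat, Atp7b had a log2 fold change of 0.38 that did not pass the test (edgeR adjusted P = 0.0802).

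Genes with the most similar pair of log2 fold changes in rat and mouse were sought for each of the 6 genes tested in both, among 4028 shared genes whose mean reached 10 FPKM in some group of each species. Likeness was the distance between the pairs in log2 units, over the 2 comparisons. The nearest genes were Ltbp2 (0.147) and Plk2 (0.311) for Slc39a8, and Vcan (0.114) and Zfp36l1 (0.219) for Slc39a14. For Slc39a10 they were Pdpn (0.18) and Mdm2 (0.197), and for Slc30a1 Arl6ip6 (0.0306) and Ptbp3 (0.0579). For Mtf1 they were Cd9 (0.00231) and Mocs1 (0.0132), and for Mt1 Slc16a3 (0.212) and Cebpd (0.415). Genes with small changes have more near neighbours, and the rat and mouse pairs share no libraries.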

How the data were processed

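RNA-seq was performed on passage 1 articular chondrocytes in 4 groups of 3 libraries, grouped by their treatment labels. For each species, the deposited table holds raw counts per Ensembl gene, which the authors did not normalize, and FPKM values that the authors made from them. The submitters' processing notes name HISAT2, HTSeq 0.11.2 and the builds GRCm38 and Rnor_6.0, without a role. Whether counting used strand and how reads of overlapping genes were treated is not given in the sources used here. FPKM lengths equalled merged exons of GENCODE M21 within 1 base for 96.2% of 11365 mouse genes with at least 100 counts in a library.

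The counts went into edgeR 4.0.16 under R 4.3.3 (filterByExpr, TMM, glmQLFit, glmQLFTest), separately per species, with Benjamini-Hochberg adjustment over all genes tested and calls at an adjusted P under 0.05. The difference between the species was fitted over all libraries, with sizes and factors set within species. SEs were worked out from the log2 fold change and the F statistic of these fits. The 95% intervals of the differences are a normal approximation from those SEs, and are narrower than the F test implies. An exact permutation test of 3 against 3 cannot go below P = 0.1 and was not used. Ratios with 1 to 3 counts in a group carry exact 95% intervals, and a count of 0 a floor of 3 counts over the group. The edgeR, DESeq2, limma, voom and block fits were tested on simulated data, and the other scalings, filter and second pseudocount were not. Alternatives were other scalings, no filter, DESeq2 1.42.0, limma 3.58.1 on log2(FPKM + 1) and log2(FPKM + 0.1), voom, a replicate block and leaving out each library. Libraries held between 16841580 and 25903459 counted reads. Libraries of a group differed by more than sampling noise (chi-square per gene 6.07 to 27.8 in rat and 1.9 to 2.48 in mouse), so depth alone sets the precision of low genes only.

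Genes were named by a rule. Every gene examined was taken, with all metallothioneins and the proteases, the 3 largest and 3 smallest called changes of the ZIP and ZnT lists per species, the 2 smallest adjusted P of the iron and copper lists per species, and the 2 nearest genes in the likeness search. The members and lists were chosen with earlier results of these data known. Slc39a6, Slc30a7, Gm45774, Gm20427, Cd14, Cd68, Lyz2, Csf1r, Ptprc, Itgam, Gm49368, Thy1, Pdgfra, Slc39a1 and Slc39a5 were named after their values were seen. Rat coordinates in the build of the counts were not analysed here, and promoter coordinates are those of GRCr8.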

Additional observations from a re-analysis of the deposited data

Results flagged for a closer look

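The change with IL-1β differed between rat and mouse, by the test of the difference itself, for 5 of the 6 genes tested in both species. Such calls were common, as 31.4% of the 10951 shared genes had a called difference above 0 and 32.3% one below 0. The log2 fold change of mouse minus that of rat was 2.53 for Slc39a10 (SE 0.083, edgeR adjusted P = 1.39e-13), from 0.34 in rat and 2.87 in mouse. It was 2.17 for Mt1 (SE 0.086, edgeR adjusted P = 1.3e-12), from 1.76 and 3.93. For Slc39a8 it was 1.08 (SE 0.15, edgeR adjusted P = 7.3e-06), from 1.53 and 2.61, and for Slc39a14 0.57 (SE 0.076, edgeR adjusted P = 5.26e-06), from 1.71 and 2.28. For Mtf1 it was 0.81 (SE 0.28, edgeR adjusted P = 0.0194), from 0.04 and 0.84. In each case all 3 MM libraries lay above all 3 MC libraries, and the share of all mouse genes that separate so was not worked out. The species also differ in scaling, gene models and the spread between libraries. With library size alone the differences were 2.24 for Slc39a10, 1.88 for Mt1, 0.79 for Slc39a8, 0.27 for Slc39a14 and 0.52 for Mtf1. Limma voom with weights per species, which lets the spread differ between them, gave 2.53, 2.17, 1.08, 0.57 and 0.83 in that order. The Mtf1 difference was not called in either (edgeR adjusted P = 0.116 and limma adjusted P = 0.0546). Beyond these refits, the part of each was not tested.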

How the results depend on the processing

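Of the 289 refits of the member genes, 277 kept the direction and the side of the threshold. Among refits of the other single genes followed, 457 did so, 32 lost the call, 10 gained one and 4 changed direction. The rat log2 fold change of Mtf1 turned to -0.20 without RC replicate 2 and -0.29 without RM replicate 3, and leaving out 1 library gave -0.29 to 0.25, none called. The difference of Slc30a1 turned to 0.09, 0.02 and 0.01 without RC replicate 2, RM replicate 2 and MM replicate 2, and was called on log2(FPKM + 1) (-0.34, limma adjusted P = 0.0326). The difference of Slc39a8 turned to -0.12 on log2(FPKM + 1). The difference of Mtf1 was not called in 5 of 20 alternatives. Mouse Slc30a7 turned to -0.12 with library size alone, -0.10 on log2(FPKM + 1) and -0.11 on log2(FPKM + 0.1), and rat Slc30a9 to -0.06 without RC replicate 3. Members called higher were 6 in rat under each refit and 6 in mouse, or 7 with no filter, where Mt2 was called on its 18 counts. Members larger in mouse were 5, and 4 in 6 of the alternatives.

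Over the whole zinc family (ZIP, ZnT, metallothioneins and MTF1), 21 genes were tested in each species. Of these, 7 were called higher and 2 lower in rat and 14 and 4 in mouse. Over all genes tested, 18.3% were called higher and 16.8% lower in rat, and 37.4% and 37.7% in mouse. For the family, the criteria of the study gave 4 and 0 in rat and 9 and 0 in mouse. The lower count in rat was 1 with no filter, DESeq2 and limma at either pseudocount, and 1 to 3 when 1 library was left out (3 without RC replicate 1, and 1 without each of the others). The higher count in rat was 6 with the replicate block and 6 to 8 when 1 library was left out, and in mouse 13 to 16 over the refits. The lower count in mouse was 2 with RLE, no filter or DESeq2, 7 with library size alone and with limma at either pseudocount, and 1 to 4 when 1 library was left out (1 without MC replicate 1, and 2 without MC replicate 3, MM replicate 1 or MM replicate 3). In the difference, 1 family gene was larger in rat, 4 with library size alone and limma at either pseudocount, and 1 to 2 when 1 library was left out (2 without MM replicate 1). Of the members, 1 was larger in rat on log2(FPKM + 1). These moves were not tested for a cause. With the replicate number as a block, 6 members were called higher in rat and 6 in mouse, with 2436 and 2098 genes called higher and lower over the rat table and 5503 and 5544 over the mouse table. The deviations of same-numbered samples from their group means correlated between -0.0977 and 0.0849 in rat and 0.00124 and 0.0149 in mouse. Pairs with different numbers lay between -0.185 and 0.162 in rat and between -0.0104 and 0.00555 in mouse. Whether same-numbered samples share animals or a batch was not tested. Depth limits rat Mtf1 (24 to 55 counts per library), mouse Mt2 and genes with few control counts.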

Other observations

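The iron genes differed in direction between the species in places that the rule for named genes did not cover, and the genes of this paragraph were chosen after their values were seen. Steap3, a reductase of endosomal iron, went from 12.8, 14.8 and 13.8 FPKM in RC to 18.3, 17.8 and 18.9 in RM (log2 fold change 0.39, edgeR adjusted P = 0.00333). In mouse it fell from 47.2, 46.1 and 49.2 in MC to 3.27, 3.58 and 3.80 in MM (log2 fold change -3.47, edgeR adjusted P = 3.81e-58), and the difference was -3.86 (edgeR adjusted P = 7.55e-15). Slc40a1, the iron exporter ferroportin, fell in mouse from 5.52 ± 0.761 to 0.932 ± 0.00887 FPKM (SD, n = 3, log2 fold change -2.29, edgeR adjusted P = 1.35e-33), and it was listed at 0 in all 6 rat libraries. Tfrc, the transferrin receptor, rose in both species, by 0.77 in rat (edgeR adjusted P = 0.000258) and 1.34 in mouse (edgeR adjusted P = 6.44e-40). Rat Mt1m, a further metallothionein row of the table, had 17 counts over RC and 67 over RM (log2 fold change 1.93, edgeR adjusted P = 0.00491). The part of reads that match more than 1 metallothionein gene, in Mt1m or in rat Mt1 and Mt2A, was not tested.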
